A study of Mus musculus with 2 samples.

Results

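The replication-dependent H2A and H2B genes are the genes of the mouse histone clusters that encode the core histones H2A and H2B. They were chosen by name, as every gene of the authors' deposited peak-to-gene table whose older symbol begins with Hist, a digit and then h2a or h2b. The rule found 28 of the 2323 genes of that table, 15 of H2A and 13 of H2B. A RefSeq gene table of the same assembly lists 36 protein-coding genes with such names, 18 of each histone, so 8 coding genes had no row. It lists 3 more that are not protein-coding, Hist3h2bb, Hist1h2aj and Hist1h2al, and none of these had a row.

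The table comes from CUT&RUN, in which an antibody guides a nuclease to its target on chromatin and the released fragments are sequenced. The tissue was retina of wild-type CD1 mice at embryonic day 14, with 1 library made with an antibody to POU3F1 and 1 with rabbit IgG. No value of the IgG library was analysed here, and the number of embryos is not given in the sources used here. With 1 library there is no replicate check, so every value below describes this library and no test was made between conditions. The retina was profiled whole, the sources give no sorting of its cells, and the peaks cannot be assigned to a retinal cell type.

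Replication-dependent histone genes supply the histones that package new DNA in S phase. They lie in clusters, have no introns in the usual transcript and make messages that end in a stem-loop in place of a poly(A) tail. Many H2A and H2B genes stand head to head, so that a single stretch of DNA serves as the promoter of both. The octamer, a short DNA word, is a classic element of H2B promoters and is the recognition sequence of POU-domain factors. It was first studied there through Oct-1, the product of Pou2f1, and POU3F1 is a POU-domain factor of neural cells that binds the same kind of word.

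The promoters that the results turn on are printed here, as the 250 bases before the RefSeq start, 5′ to 3′ on the strand of the gene (GRCm38.p6, the assembly also called mm10). Capitals mark the octamer, ATTTGCAT. The first 5 carried an octamer inside a POU3F1 peak, at chr13:23746484-23746733 (+) for Hist1h2bb, chr13:23585971-23586220 (−) for a second start of Hist1h2be, chr13:23571150-23571399 (+) for Hist1h2bg, chr13:22035571-22035820 (+) for Hist1h2bk and chr13:21721794-21722043 (+) for Hist1h2bm. The sixth, Hist1h2ba at chr13:23934157-23934406 (−), had an octamer and no peak.
Hist1h2bb: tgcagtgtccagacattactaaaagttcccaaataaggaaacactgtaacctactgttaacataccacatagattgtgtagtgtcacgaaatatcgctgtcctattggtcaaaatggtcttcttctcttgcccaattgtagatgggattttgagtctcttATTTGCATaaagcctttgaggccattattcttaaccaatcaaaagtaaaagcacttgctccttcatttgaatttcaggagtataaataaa
Hist1h2be second start: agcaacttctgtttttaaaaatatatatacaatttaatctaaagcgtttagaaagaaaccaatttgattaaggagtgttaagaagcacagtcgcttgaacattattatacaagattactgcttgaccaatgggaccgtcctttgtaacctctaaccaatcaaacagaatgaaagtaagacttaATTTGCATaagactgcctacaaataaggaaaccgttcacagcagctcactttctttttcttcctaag
Hist1h2bg: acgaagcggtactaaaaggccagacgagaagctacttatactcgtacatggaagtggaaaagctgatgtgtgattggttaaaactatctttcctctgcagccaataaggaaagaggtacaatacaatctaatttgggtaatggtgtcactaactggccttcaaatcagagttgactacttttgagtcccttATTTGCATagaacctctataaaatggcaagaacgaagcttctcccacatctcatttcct
Hist1h2bk: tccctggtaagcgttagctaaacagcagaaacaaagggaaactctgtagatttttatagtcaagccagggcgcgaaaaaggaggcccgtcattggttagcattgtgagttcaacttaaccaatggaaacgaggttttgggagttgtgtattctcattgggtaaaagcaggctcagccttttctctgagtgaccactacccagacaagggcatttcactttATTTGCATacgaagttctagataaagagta
Hist1h2bm: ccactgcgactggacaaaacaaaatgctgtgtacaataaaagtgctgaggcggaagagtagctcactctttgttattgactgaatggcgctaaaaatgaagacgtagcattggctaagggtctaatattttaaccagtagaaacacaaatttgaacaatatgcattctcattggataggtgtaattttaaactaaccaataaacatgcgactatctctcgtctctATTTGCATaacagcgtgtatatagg
Hist1h2ba: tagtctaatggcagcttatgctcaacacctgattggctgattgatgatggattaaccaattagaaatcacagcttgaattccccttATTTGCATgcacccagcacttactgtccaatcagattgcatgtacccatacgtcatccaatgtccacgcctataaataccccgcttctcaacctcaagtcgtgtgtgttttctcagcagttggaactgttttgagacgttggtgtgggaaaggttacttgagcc

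The last promoter, of Hist1h2bf at chr13:23574208-23574457 (−), lay under the peak of highest fold among those within 1 kb of a family gene by the deposited distances. A peak of higher fold lay at the second start of Hist1h2be and is described further on. The Hist1h2bf promoter holds no exact octamer. Capitals mark the word ATTTGAAT, which has a mismatch to the octamer at 1 letter.
Hist1h2bf: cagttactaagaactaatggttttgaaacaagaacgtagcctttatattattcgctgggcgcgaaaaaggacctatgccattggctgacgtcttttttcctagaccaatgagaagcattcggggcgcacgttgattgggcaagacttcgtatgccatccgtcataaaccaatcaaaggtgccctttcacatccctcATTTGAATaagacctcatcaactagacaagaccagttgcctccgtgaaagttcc

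POU3F1 peaks sat at the starts of most H2A and H2B genes. Of the 36 coding genes, 28 had an assigned peak (77.8%, exact Clopper-Pearson 95% interval 60.8 to 89.9), whereas 10.2% of all protein-coding genes of the reference table had one. All 28 had a peak midpoint within 1 kb of the start by the deposited distance, and within 500 bp too. The share within 1 kb was therefore also 28 of 36 coding genes (77.8%), beside 0.913% of all protein-coding genes. Intervals here and below cover counting error only. Neighbouring genes share peaks, so genes are not independent draws.

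The same picture came from the peak intervals and the RefSeq starts, without the deposited assignments. A peak overlapped the promoter window, from 250 bases before the start to 50 after it, in 29 of 36 genes (80.6%, 64.0 to 91.8), beside 0.81% of all protein-coding windows. A peak midpoint lay within 1 kb of the RefSeq start in 30 of 36 genes (83.3%), beside 0.975% of all. The start itself lay inside a peak in 25 of 36 genes. The share of all protein-coding genes with their start inside a peak was not computed, so this count has no comparison.

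The shares of H2A and H2B genes with a peak did not differ beyond their intervals. An assigned peak was present for 15 of 18 H2A genes (83.3%, 58.6 to 96.4) and for 13 of 18 H2B genes (72.2%, 46.5 to 90.3). By a midpoint within 1 kb of the RefSeq start the counts were equal, at 15 of 18 (83.3%) for H2A and for H2B genes. The start lay inside a peak in 11 of 18 H2A genes and in 14 of 18 H2B genes.

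The peak midpoints lay slightly upstream of most genes, with a smaller median distance for H2B than for H2A starts. The nearest midpoint was upstream of the start in 24 of the 28 genes, at it in 1 (Hist1h2br) and downstream in 3 (Hist2h2be, Hist1h2bp and Hist1h2bc). The deposited distance to it ranged from 111 to 329 bp for H2A genes, with a median of 144 bp. For H2B genes it ranged from 0 to 158 bp, with a median of 48 bp. By these deposited distances the ranges of the H2A and H2B genes overlap between 111 and 158 bp. Taken from RefSeq starts, the medians were 140 and 44 bp. The ranges then overlapped more widely, at 13 to 319 bp for H2A and 0 to 159 bp for H2B genes. The starts behind the deposited distances differed from RefSeq by up to 98 bp.

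**Figure D1:**
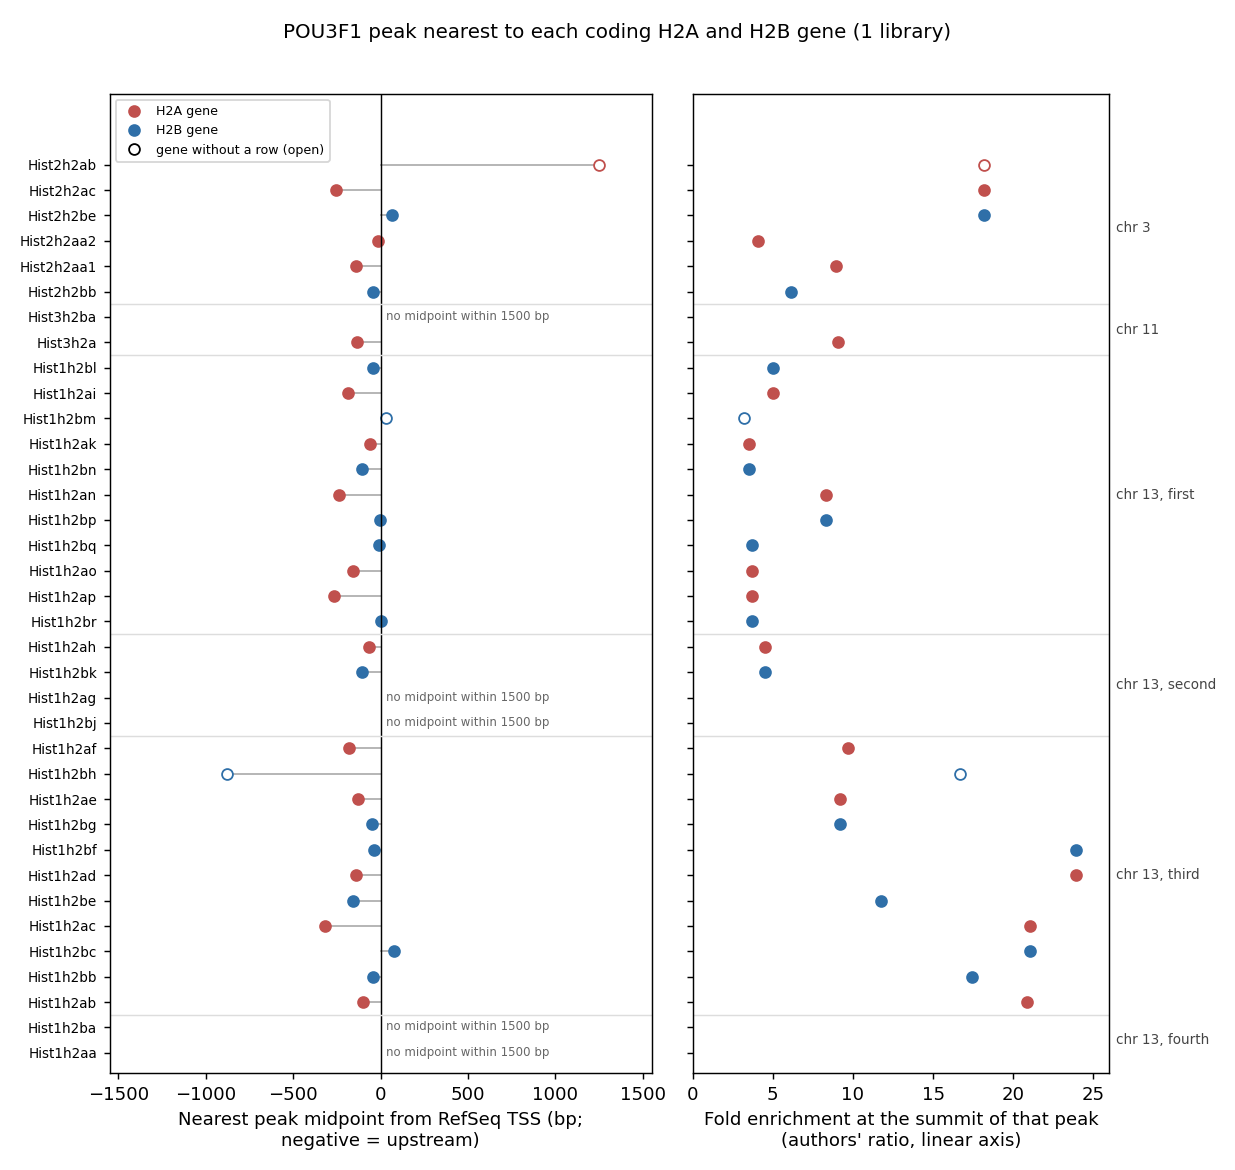
Each row is 1 of the 36 coding H2A (red) or H2B (blue) genes, in genome order within its stretch, with genes that had no row drawn open. The left panel gives the signed distance in bp from the RefSeq start to the nearest peak midpoint, and the right panel the authors' fold enrichment of that peak; the genes of the third stretch on chromosome 13 reach 23.9-fold, and those of the first stay at or below 8.29-fold.

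The 28 genes had 40 pairings with a peak but only 24 distinct peaks, because 14 peaks were assigned to more than 1 gene of the family and 10 to 1. Of the 28 genes, 19 had 1 peak, 6 had 2 and 3 had 3 (Hist1h2ae, Hist1h2ac and Hist1h2bc). Within 1 kb of a start there were 18 distinct peaks. If each peak is counted only for the gene with the nearest deposited start, 18 genes in place of 28 keep a peak, as the other 10 share theirs with a partner.

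Strength is given as the fold enrichment that the peak caller computed for the summit relative to its local background, which is the authors' value, and as the summit pileup, the number of fragments over the summit that these values imply. The 18 peaks had folds from 3.51 to 23.9 with a median of 9.02, against 6.37 for all 2652 peaks and 7.36 for 214 other peaks with a midpoint within 1 kb of a RefSeq start. Of the 18, 11 were above the median of all peaks, 6 reached 10-fold and 3 reached 20-fold. Their pileups ran from 22 to 193 fragments with a median of 43, while the median was 19 over all peaks and 26 over the 214 others. The local background was also higher, with a median of 5.65 fragments against 1.54 and 2.06. What part the background plays in the folds was not tested.

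The family lies on chromosomes 3, 11 and 13, in stretches separated by more than 100 kb. An assigned peak was present for 5 of 6 coding genes on chromosome 3, 1 of 2 on chromosome 11 and 22 of 28 on chromosome 13. Hist1, the large cluster on chromosome 13, holds 4 stretches with coding H2A or H2B genes, and these differed in fold.

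The first stretch, chr13:21715711-21837530, had a row for 10 of its 11 genes. Its 5 peaks within 1 kb had folds of 3.51 to 8.29 with a median of 3.73. That median is the fold of the peak of Hist1h2ap and Hist1h2br. The promoters of this pair and of Hist1h2ao with Hist1h2bq are near copies, so the values of both peaks are uncertain, as described further on. Their median pileup was 35 fragments and their median background 9.25 fragments. The second stretch, chr13:22035122-22043658, had 2 of 4 genes and 1 peak of 4.51-fold, with 29 fragments over a background of 5.65. Of these 6 peaks, the one of Hist1h2an and Hist1h2bp was above the median fold of all peaks and the other 5 were below it.

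The third stretch, chr13:23533875-23751592, also had rows for 10 of 11 genes, and its 7 peaks within 1 kb had folds of 9.22 to 23.9 with a median of 17.4. Here the median pileup was 84 fragments and the median background 2.72 fragments. For these peaks within 1 kb, the folds of the first stretch and of the third do not overlap. Their pileups do, at 22 to 84 fragments in the first and 23 to 193 in the third. The −log10 q-values overlap as well, with 45.8 at the highest in the first stretch and 16.3 at the lowest in the third. Over all assigned peaks the folds overlap too. Peaks assigned only from beyond 1 kb had a fold of 8.84 in the first stretch and folds down to 5.27 in the third. The fourth, chr13:23933725-23934913, holds Hist1h2ba and Hist1h2aa, which encode the testis histones TH2B and TH2A. Neither had a peak, and the nearest midpoint lay 171572 bp and 171853 bp from their starts.

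On chromosome 3, chr3:96219885-96270192 had 4 peaks within 1 kb with folds of 4.06 to 18.2 and a median of 7.55. On chromosome 11, chr11:58948911-58955192 had a single peak, of 9.07-fold, at Hist3h2a. Its interval was chr11:58954251-58954845, with 50 fragments over a background of 4.62, and its midpoint lay 137 bp upstream of the start.

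**Figure D2:**
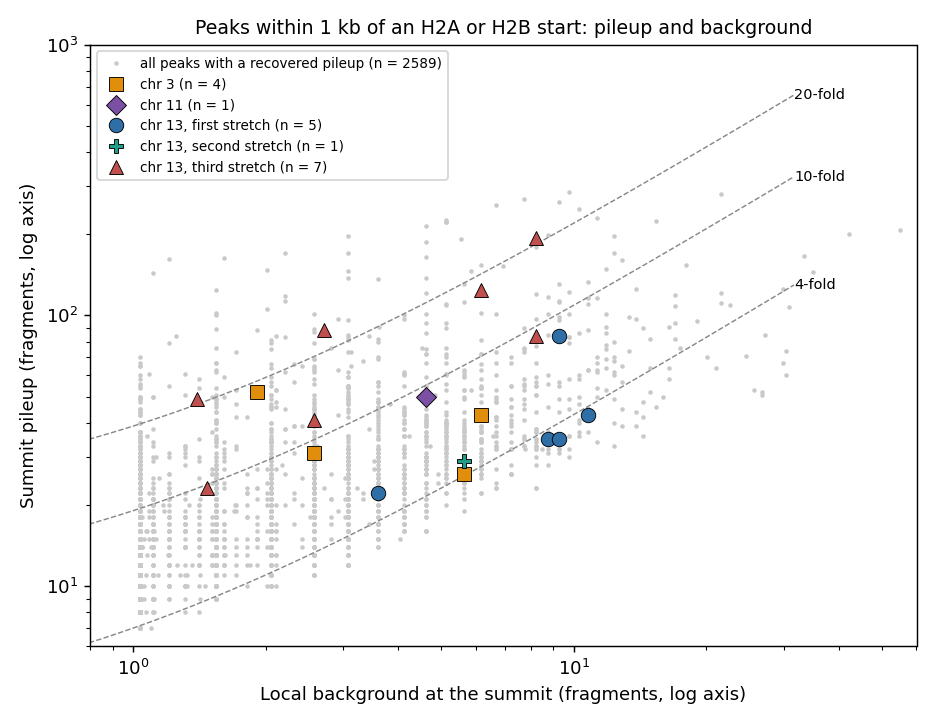
Summit pileup (fragments, log axis) against local background at the summit (fragments, log axis) for the 18 peaks within 1 kb of an H2A or H2B start, marked by stretch, over all 2570 peaks with a recovered pileup that fall inside the axes (grey, with 19 more outside them). Dashed lines join equal folds of 4, 10 and 20; the 7 peaks of the third stretch lie at 9.22-fold or more and the 5 of the first at 8.29-fold or less.

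The 36 coding genes form 12 head-to-head pairs of 1 H2A and 1 H2B gene on opposite strands, with starts 164 to 281 bp apart and a median gap of 210.5 bp. In 10 of the 12 pairs, 1 peak within 1 kb was shared by both genes. The shared peaks had a median fold of 6.65, and the 8 peaks at genes outside pairs had a median of 9.39, with overlapping ranges (3.51 to 23.9 and 4.06 to 20.8).

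The 10 shared peaks sat on the stretch between the genes and leaned toward H2B. The summit lay between both RefSeq starts in 9 of 10 pairs, with Hist2h2ac and Hist2h2be as the exception. The peak covered the H2B start in all 10 pairs and the H2A start in 6, so 6 peaks covered both. The midpoint was on the H2B side of the centre in 8 pairs, and in 8 the peak held more bases of the H2B than of the H2A gene. The exceptions to both counts were Hist1h2ak with Hist1h2bn and Hist1h2ah with Hist1h2bk. The summit itself was nearer the H2B start in 5 of 10.

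**Figure D3:**
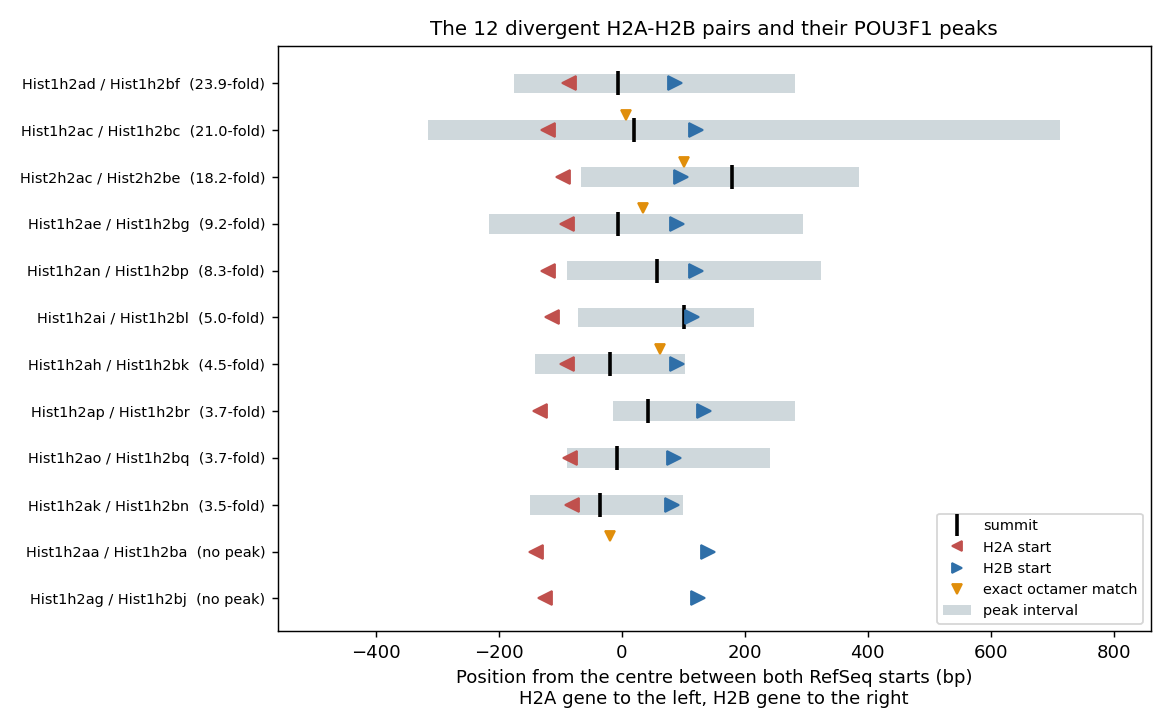
Map of the 12 head-to-head pairs, each centred between its RefSeq starts (x axis in bp), with the H2A start as a red arrow on the left, the H2B start as a blue arrow on the right, the peak interval in grey, its summit as a black line and exact octamer matches as orange triangles. In 10 pairs the grey interval covers the H2B start, in 6 of these also the H2A start, and the bottom 2 pairs have no peak.

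The strongest shared peak belonged to Hist1h2ad and Hist1h2bf in the third stretch. It spanned chr13:23574013-23574470 and had a fold of 23.9, a −log10 q-value of 94.0 and a pileup of 88 fragments. Its midpoint was 140 bp upstream of Hist1h2ad and 45 bp upstream of Hist1h2bf. Its fold exceeded that of 96.8% of all peaks.

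Hist1h2ac and Hist1h2bc had the tallest and longest peak of the family, at chr13:23683763-23684792. It was 1030 bp long, with 193 fragments over a background of 8.22, a fold of 21.0 and a −log10 q-value of 182. The midpoint lay 329 bp upstream of Hist1h2ac and 78 bp inside Hist1h2bc, and 594 of its bases fell in the Hist1h2bc gene against 197 in Hist1h2ac. The third pair of this stretch, Hist1h2ae and Hist1h2bg, shared chr13:23571093-23571604, of 9.22-fold with 84 fragments and a −log10 q-value of 49.7. That midpoint was 128 bp upstream of Hist1h2ae and 48 bp upstream of Hist1h2bg. Its pileup was close to that of the Hist1h2ad and Hist1h2bf peak, on a background of 8.22 in place of 2.72 fragments.

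On chromosome 3, Hist2h2ac and Hist2h2be shared chr3:96220910-96221362, with a fold of 18.2, 52 fragments and a −log10 q-value of 51.0. The midpoint lay 256 bp upstream of Hist2h2ac and 17 bp downstream of the deposited start of Hist2h2be. The summit was 83 bp inside Hist2h2be by the RefSeq start. It was the only shared peak with its summit inside a gene.

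In the first stretch and the second, 5 pairs had folds at or under 5.004, namely Hist1h2ai with Hist1h2bl, Hist1h2ah with Hist1h2bk, Hist1h2ap with Hist1h2br, Hist1h2ao with Hist1h2bq and Hist1h2ak with Hist1h2bn. The Hist1h2ai and Hist1h2bl peak, chr13:21716083-21716369, had a fold of 5.004, 22 fragments and a −log10 q-value of 7.32, with midpoints 196 and 83 bp upstream. The Hist1h2ah and Hist1h2bk peak, chr13:22035590-22035834, had 4.51-fold, 29 fragments and 8.38, at 144 and 158 bp upstream. These 2 peaks differed in summit position, 13 bp from the Hist1h2bl start in the first and 69 bp from the Hist1h2ah start in the second.

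The Hist1h2ap and Hist1h2br peak, chr13:21833595-21833891, had 3.73-fold with 43 fragments and a −log10 q-value of 9.64, at 236 bp upstream of Hist1h2ap and 0 bp from Hist1h2br. The Hist1h2ao and Hist1h2bq peak, chr13:21810042-21810373, had 3.70-fold with 35 fragments and 7.55, at 258 and 10 bp upstream. The Hist1h2ak and Hist1h2bn peak, chr13:21753845-21754094, was the weakest of the 18, with 3.51-fold, 35 fragments and 6.91, at 142 and 154 bp upstream. All 3 had pileups above the median of all peaks, on backgrounds of 10.8, 8.74 and 9.25 fragments. A stronger pair in the same stretch, Hist1h2an and Hist1h2bp, shared chr13:21787279-21787692, of 8.29-fold with 84 fragments and a −log10 q-value of 45.8, with the midpoint 267 bp upstream of Hist1h2an and 24 bp inside Hist1h2bp.

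The values of some of these pairs are uncertain because their promoters are near copies. Reads were 50 bases long per the labels, and 28 of 34 promoter windows of the family shared no 50-letter word with any other window of the table. Only these windows were compared, so the parts of peaks that reach further into the genes were not checked for copies. The windows of Hist1h2bq and Hist1h2br were identical at all 300 bases, and Hist1h2ao shared 86.9% and Hist1h2ap 73.3% of their words with another window. How the authors' alignment divided such reads between these 2 pairs is not given in the sources used here. Hist2h2aa1 and Hist2h2aa2, neighbouring copies on chromosome 3, shared 67.7% of their words each.

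Outside the pairs, 8 of 12 coding genes had a row. Hist1h2ab had a peak at chr13:23750623-23751355 of 20.8-fold with 49 fragments and a −log10 q-value of 53.2, 137 bp upstream. Hist1h2bb had chr13:23746335-23747050 of 17.4-fold with 124 fragments and 108, 42 bp upstream. These single genes were among the 5 with the highest folds, together with the pairs of Hist1h2ad, Hist1h2ac and Hist2h2ac. Hist2h2aa2 was among the 5 lowest, with chr3:96240284-96240490 of 4.06-fold, 26 fragments and a −log10 q-value of 6.32, 111 bp upstream by the deposited distance and 13 bp by the RefSeq start. The other single genes lay between, with 11.8-fold at the first start of Hist1h2be, 9.72-fold at Hist1h2af, 9.07-fold at Hist3h2a, 8.97-fold at Hist2h2aa1 and 6.14-fold at Hist2h2bb.

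The peak of highest fold assigned to the family was not one of the 18. It spanned chr13:23585708-23586335, with a fold of 26.8 and 81 fragments over a background of 2.06, above 97.7% of all peaks. The authors' deposited table places it 35103 bp downstream of the Hist1h2be start and 4423 bp downstream of Hist1h4d. RefSeq gives Hist1h2be a second start, and the midpoint lay 52 bp and the summit 28 bp from it. The promoter of that second start, printed above, held an octamer 67 bp upstream and 35.5 bp from the summit.

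Another 5 peaks were assigned to the family only from beyond 1 kb. Of these, 3 lay at H3 genes by the deposited distances, 127 bp upstream of Hist1h3h, 152 bp upstream of Hist1h3d and 19 bp downstream of the start of Hist1h3c. The other 2 lay inside the long annotated gene of Hist1h2bc, 1167 and 2274 bp from its start, with folds of 5.27 and 9.18 and pileups of 11 and 19 fragments.

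The 8 coding genes without a row were Hist2h2ab, Hist3h2ba, Hist1h2bm, Hist1h2ag, Hist1h2bj, Hist1h2bh, Hist1h2ba and Hist1h2aa. The pairs without a shared peak, Hist1h2ag with Hist1h2bj and Hist1h2aa with Hist1h2ba, had gaps of 249 and 281 bp. For Hist1h2ag and Hist1h2bj the nearest midpoint lay 7237 and 7486 bp away, at the neighbouring pair Hist1h2ah and Hist1h2bk. For Hist3h2ba it lay 5637 bp away, at Hist3h2a, and for Hist2h2ab 1251 bp downstream, at Hist2h2ac and Hist2h2be.

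A missing row did not always mean a missing peak. The RefSeq start of Hist1h2bm lay inside chr13:21721910-21722234, a peak of 3.18-fold with 48 fragments over a background of 14.4. The authors' deposited table pairs that peak with Hist1h3h and Hist1h4j instead, at 4413 and −12992 bp. Hist1h2bh had a midpoint 876 bp upstream of its start in chr13:23544127-23544513, a peak of 16.7-fold with 33 fragments. The table pairs it with Hist1h3f, at 268 bp, and the peak does not reach the Hist1h2bh promoter window.

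The octamer was common in the promoters of the family. The word ATTTGCAT, on either strand, was present in 13 of the 34 family windows of 300 bases (38.2%, exact 95% interval 22.2 to 56.4). It was present in 1.74% of all 32817 windows of the RefSeq promoter table. Hist2h2be and Hist1h2bc had no window. For Hist1h2be the window of its first start was counted, which held no exact octamer. The window of its second start, which held an octamer, was not counted. The intervals overlapped between H2A windows, 7 of 18 (38.9%, 17.3 to 64.3), and H2B windows, 6 of 16 (37.5%, 15.2 to 64.6).

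All 13 matches lay before the start, where 1.6% of all windows had one. The first 7 letters of the octamer gave the same 13 windows in the family and 4.03% of all windows. With at most 1 mismatch the count rose to 29 of 34 (85.3%, 68.9 to 95.05), beside 18.6% of all windows. Of other promoter words, TATAAA, the core of the TATA box, was present in 19 of 34 windows (55.9%, 37.9 to 72.8), beside 13.6% of all. CCAAT, a word bound by NF-Y, was present in all 34, beside 37.4% of all windows. The exact octamers are among the 1-mismatch matches, so those counts are nested.

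**Figure D4:**
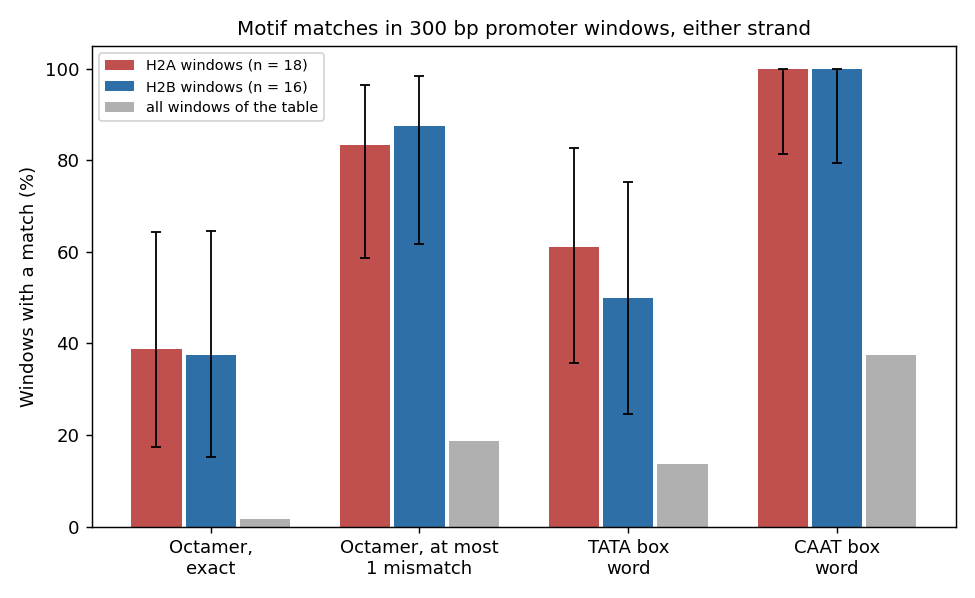
Share (%) of 300-base promoter windows with a match on either strand for H2A windows (red, n = 18), H2B windows (blue, n = 16) and all 32817 windows of the table (grey), with exact 95% intervals on the family bars. The H2A and H2B bars lie close together for each word, at 38.9% and 37.5% for the exact octamer, beside 1.74% for all windows.

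Since paired genes share their promoter, the 13 matches came from 10 distinct sites. In all 13 windows the octamer read forward on the strand of the H2B gene or backward on that of the H2A gene, so the orientation was the same at every site. It lay 25 to 164 bp upstream of H2B starts and 119 to 200 bp upstream of H2A starts. Of the genes without a window, Hist1h2bc had the shared site 117 bp upstream, and the site shared by Hist2h2ac and Hist2h2be began 1 bp downstream of the RefSeq start of Hist2h2be.

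Of the 10 sites, 9 lay inside a POU3F1 peak. The distance from site to summit was 13 to 98 bp with a median of 68 bp. It was smallest at Hist1h2ac, where the summit was 13 bp away, then at Hist1h2bm, 17 bp, and largest at Hist1h2bb, 98 bp. The site outside a peak was the one between the testis genes Hist1h2ba and Hist1h2aa, 164 bp upstream of the former and 124 bp of the latter.

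An exact octamer did not separate the family promoters with a peak from those without. A peak overlapped 11 of 13 windows with the octamer and 16 of 21 without it. The 8 near peaks that held an octamer of a family window had folds of 4.51 to 21.0 with a median of 13.3, and the 10 others 3.51 to 23.9 with a median of 6.65, so the ranges overlap. Local background medians were 5.91 and 4.62 fragments.

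Many promoters without the exact word held a close form of it. The word ATTTGAAT was the most frequent 1-mismatch form, in 14 of 34 windows (41.2%) from 9 sites, beside 1.24% of all windows. It was singled out after its count was seen. It occurs in the pair of the strongest shared peak, Hist1h2ad and Hist1h2bf, 54 bp upstream of Hist1h2bf, and in the pair without a peak, Hist1h2ag and Hist1h2bj. A match is a description of letters and does not show that a factor binds there.

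Among promoters of other genes, a larger share of those with an octamer had a peak. With all histone cluster genes left out, a peak overlapped 35 of 556 windows with the octamer (6.29%, 4.42 to 8.65) and 151 of 32198 without it (0.469%, 0.397 to 0.55). The intervals do not overlap, although windows of neighbouring genes can share a peak. For ATTTGAAT the count was 6 of 394 (1.52%, 0.561 to 3.29).

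Fewer H4 and H1 genes had a midpoint within 1 kb, 3 of 13 and 0 of 6, against 28 of 36 H2A and H2B genes. H3 genes, which encode a partner of H4 in the nucleosome core, had an assigned peak in 11 of 12 and one within 1 kb in 8 of 12, namely Hist1h3a, Hist1h3b, Hist1h3c, Hist1h3d, Hist1h3e, Hist1h3f, Hist1h3g and Hist1h3h. H4 genes had one assigned in 10 of 13 but within 1 kb in 3 of 13 (23.1%, 5.04 to 53.8), Hist1h4a, Hist1h4c and Hist2h4. H1 genes, which encode linker histones, had 3 of 6 assigned and 0 of 6 within 1 kb (interval 0 to 45.9). The H4 and H1 intervals for a peak within 1 kb lie below that of the H2A and H2B genes, 60.8 to 89.9, and the H3 interval, 34.9 to 90.1, overlaps it.

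A further list held histone variant genes outside the clusters, such as H2afx and H2afz, and the linker histone gene H1f0. An assigned peak was present for 1 of its 11 matched genes (9.09%), near the 10.2% of all protein-coding genes. None had a midpoint within 1 kb (interval 0 to 28.5), a range that includes the 0.913% of all protein-coding genes. Among 30 factors that act on histone genes or their messages, 4 had an assigned peak (13.3%, 3.76 to 30.7), a share near the same 10.2%, and 2 had one within 1 kb (6.67%, 0.818 to 22.1), beside 0.913%. The latter were Pou2f1, with a midpoint 127 bp downstream of its start, and E2f3, an S-phase transcription factor, with one 95 bp upstream.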

How the data were processed

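CUT&RUN signal for POU3F1 in retina was taken as the authors' deposited list of 2652 peaks and their deposited table that pairs genes with peaks. Bowtie2, MACS2, deepTools and the build mm10 are named without roles per the submitters' processing notes. The control used for peak calling is not given in the sources used here. Per the file headers, GREAT 4.0.4 made the gene table. It gives signed distances in bp from each start to the peak midpoint, and assigns each gene a domain 5000 bp upstream and 1000 bp downstream, extended up to 1000000 bp. The deposited peak list holds, for each peak, the authors' fold enrichment (a ratio), −log10 p-value, −log10 q-value and score. The deposited score is 10 times the −log10 q-value and was not used otherwise. No column of other samples was left aside (0).

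Each deposited distance was placed on a peak within 1 bp, allowing the start of a gene to differ from RefSeq by up to 200 bp. Symbols matched RefSeq GRCm38.p6 for 2271 of 2323 genes. Promoter windows of 300 bases (250 before the start, 50 after it) came from the RefSeq promoter table and were searched on both strands. Pileup and background were computed from fold and p-value, and 2589 of 2652 peaks gave a whole-number pileup within 0.001 of the deposited −log10 p-value. On simulated peaks the step recovered 100% of whole pileups and accepted 0.4% of altered ones. Library depth is unknown, so these pileups are the depth behind each value. Intervals are exact Clopper-Pearson at 95%. Python 3.11.15, pandas 2.3.3, numpy 2.4.6, scipy 1.17.1 and matplotlib 3.10.9 were used.

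The genes, lists and words were chosen with earlier results of these data known. All family genes are named, with full values for pairs with a peak within 1 kb and for the 5 highest and 5 lowest folds. Genes of other lists are named where a peak lies within 1 kb, with H2afx, H2afz and H1f0 added as examples. Of 12 variant and linker genes listed, 11 matched. A comparison of H2A and H2B proteins was planned but not run, as no protein table was used here. Alternatives were the q-value limit, the distance limit, the source of the distance, the overlap rule and the motif.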

Additional observations from a re-analysis of the deposited data

Results flagged for a closer look

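In 2 coding genes of the family that have no row in the authors' deposited table, a peak was present near the RefSeq start. At Hist1h2bm the peak covered the start and had a fold of 3.18. At Hist1h2bh the midpoint lay 876 bp upstream and the fold was 16.7. Both peaks are paired with neighbouring histone genes in the deposited table, so counts from that table leave these 2 genes out. No IgG value was analysed here, so neither peak was compared here with the IgG library. Whether the authors' folds already rest on a control is not given in the sources used here.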

How the results depend on the processing

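The count of 28 genes with a peak within 1 kb stayed at 28 with limits of 500 bp and 5 kb and with q-values under 0.01 and 0.001. It was 29 by overlap with the promoter window. In 2 alternatives chosen after seeing the data it was 30 by RefSeq starts and 20 when limited to genes with a promoter window that shares no 50-letter word with another. That last limit drops 6 genes with shared words and also Hist2h2be and Hist1h2bc, which have no window. Counting each peak for its nearest assigned start only, 18 genes in place of 28 had an assigned peak. Allowing 1 mismatch raised the octamer count from 13 to 29 windows, from 7 to 15 for H2A and from 6 to 14 for H2B, by the looser word itself. The 10 shared pairs stayed at 10 under all alternatives run, the 18 near peaks became 23 with a limit of 5 kb, and their median fold stayed between 8.97 and 9.02. The replicate and control limits are those of 1 library: no replicate could be left out. No paired analysis was possible because each antibody has 1 library. Pileups set the depth behind each peak, with 22 fragments at the least among the 18.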
